A study of Mus musculus with 12 samples.

Results

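The 50 genes described here encode the proteasome and its helpers: every protein-coding mouse symbol of the form Psma, Psmb, Psmc, Psmd, Psme, Psmf or Psmg followed by a number, among 55573 rows of the count table. They comprise 7 alpha and 7 beta subunits of the constitutive core, 3 immunoproteasome subunits, 2 core variants known from testis and thymus, 8 base subunits, 1 ubiquitin receptor and 8 lid subunits of the regulatory particle. The others are 3 base and 4 core assembly chaperones, 4 activators and 1 inhibitor. The symbol pattern also caught 2 genes that are not proteasome subunits by role, Psmc3ip, which encodes a recombination factor, and Psme2b, an intronless copy of Psme2. RNA came from the extensor digitorum longus (EDL), a fast hindlimb muscle, of C57BL/6 mice with no further treatment or allele named in the labels, which give no age. The 12 libraries fell into 4 groups of 3 (lone myofibers, called single fibers here, myofibers pooled by 5 or by 20, and the intact muscle), all amplified with SMART-Seq HT, a kit for full-length cDNA from very little RNA. Single myofibers were put directly into lysis buffer, whereas whole muscle RNA was extracted with Trizol, so isolation and extraction cannot be told apart in that comparison. The labels do not say whether libraries came from separate animals, and p-values therefore measure the spread between these libraries, which may be technical.

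The proteasome degrades proteins that carry ubiquitin chains. Its barrel-shaped core is built of alpha rings that form the gate and beta rings that hold the catalytic sites, and a regulatory particle caps it: the base ATPases unfold substrates and open the gate, while the lid removes ubiquitin. In cells exposed to interferon, and constitutively in many immune cells, the catalytic subunits Psmb5, Psmb6 and Psmb7 are replaced by Psmb8, Psmb9 and Psmb10, which favours the production of peptides for class I antigen presentation. In skeletal muscle the ubiquitin-proteasome pathway is best known for the breakdown of myofibrillar proteins during atrophy.

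Psmb8 and Psmb9 are exchange partners of Psmb5 and Psmb6, lie close together in the major histocompatibility complex on chromosome 17, and moved apart from them across the libraries. Their sequences upstream of the RefSeq transcription start are therefore shown. Each run is the 250 bases before the start, 5′ to 3′ on the gene's strand, from RefSeq on GRCm38.p6: Psmb8 at chr17:34197945-34198194 on the plus strand, Psmb9 at chr17:34187331-34187580 on the minus strand, Psmb5 at chr14:54617996-54618245 on the minus strand and Psmb6 at chr11:70525107-70525356 on the plus strand. Capitals mark matches to the motifs searched.
Psmb8: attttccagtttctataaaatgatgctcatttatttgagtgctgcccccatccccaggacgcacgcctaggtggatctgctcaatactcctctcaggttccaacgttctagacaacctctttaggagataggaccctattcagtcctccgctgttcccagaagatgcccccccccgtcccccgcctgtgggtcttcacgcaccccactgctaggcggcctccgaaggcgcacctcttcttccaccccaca
Psmb9: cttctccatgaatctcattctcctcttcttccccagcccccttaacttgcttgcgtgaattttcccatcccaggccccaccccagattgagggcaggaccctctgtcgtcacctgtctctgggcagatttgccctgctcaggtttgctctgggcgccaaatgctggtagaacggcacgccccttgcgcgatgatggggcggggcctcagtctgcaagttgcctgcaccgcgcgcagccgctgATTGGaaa
Psmb5: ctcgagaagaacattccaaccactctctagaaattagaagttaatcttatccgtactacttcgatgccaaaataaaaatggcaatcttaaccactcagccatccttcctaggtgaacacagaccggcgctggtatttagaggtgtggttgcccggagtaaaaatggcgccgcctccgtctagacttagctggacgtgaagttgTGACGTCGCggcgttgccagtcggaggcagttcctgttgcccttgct
Psmb6: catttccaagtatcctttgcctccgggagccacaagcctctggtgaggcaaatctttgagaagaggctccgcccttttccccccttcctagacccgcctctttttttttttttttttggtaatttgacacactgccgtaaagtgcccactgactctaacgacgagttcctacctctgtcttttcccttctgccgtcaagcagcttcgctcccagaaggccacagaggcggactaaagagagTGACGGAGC
The motifs, sought on both strands, were the core of the antioxidant response element (TGACNNNGC), the CCAAT box (CCAAT) and an interferon-type repeat (GAAANNGAA). Psmb5 held the antioxidant core with its first base at -47 from the start and Psmb6 at -9, Psmb9 held a CCAAT box at -8, and the Psmb8 window held none of the 3. The Psmb8 and Psmb9 windows lie wholly inside the longer GENCODE gene models. RefSeq promoters were matched for 42 of the 50 genes, with 45 windows. The antioxidant core was found in 5 of these (11.1%), against 10.2% of all 32851 promoters of the same length. The CCAAT box was found in 15 (33.3%), against 33.8%, and the interferon-type repeat in 3 (6.67%), against 7.13%. All 3 motifs were thus about as common upstream of these genes as upstream of any gene.

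The libraries held 4702823 to 27787120 counted reads. Single fiber 2 and 5-fiber pool 3 had the highest summed proteasome levels among the fiber libraries, with or without scaling. In a further 5 libraries, 5-fiber pools 1 and 2 and all 3 pools of 20, between 58.1% and 97.3% of 1504 genes for olfactory, vomeronasal and taste receptors, which are known from sensory tissue, had a read. In the other 7 libraries this share was 2.33% to 26.7%. Levels are given in CPM, read counts per 1000000 reads of the library total, which was scaled by TMM. Fast myofiber markers summed to 168000 to 294700 CPM in single fibers, 58010 to 328400 CPM in pools of 5, 16800 to 107400 CPM in pools of 20 and 76430 to 102900 CPM in whole muscle. Endothelial markers summed to 1.75 to 6.84 CPM in single fibers, 28.9 to 389 CPM in pools of 5, 44.1 to 259 CPM in pools of 20 and 221 to 278 CPM in whole muscle. Macrophage markers summed to 0.584 to 4.81, 6.19 to 45.3 and 8.88 to 70.5 CPM in the same 3 fiber groups and to 494 to 542 CPM in whole muscle. Single fibers thus kept the muscle markers and nearly lost those of both other cell types, whereas some pools held endothelial markers at the level of whole muscle.

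**Figure D1:**
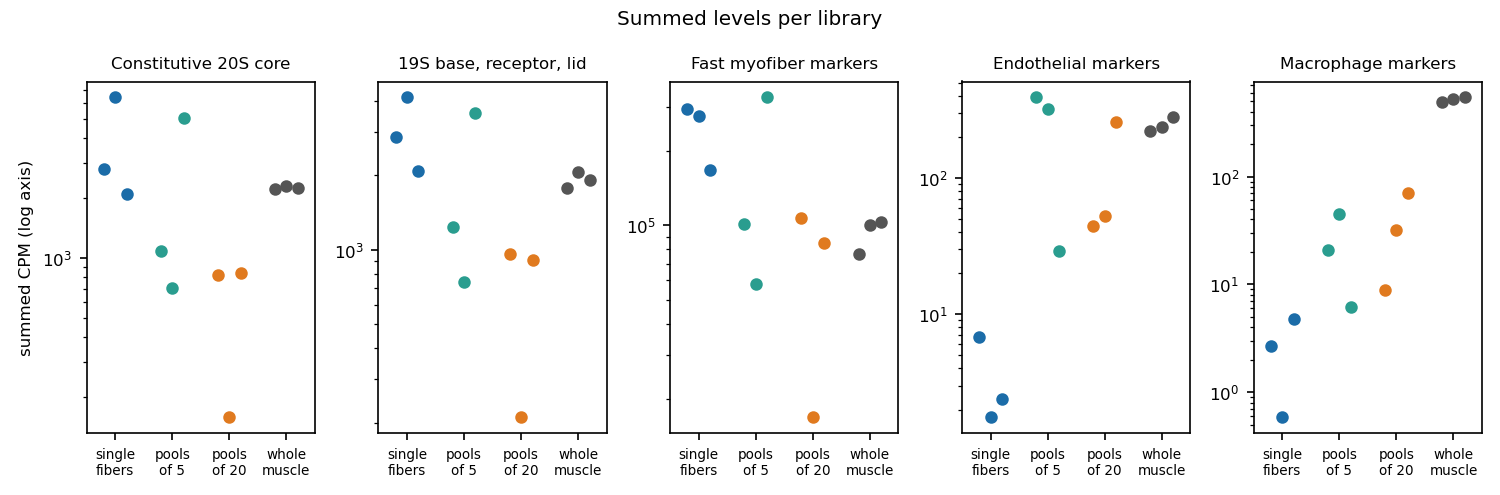
Summed CPM per library on a log axis for the constitutive 20S core, for the 19S base, receptor and lid, and for fast myofiber, endothelial and macrophage markers, with 1 point per library and 3 libraries a group. The core sums ran from 2112 to 6418 CPM in single fibers, 712 to 5083 CPM in pools of 5 and 159 to 843 CPM in pools of 20, against 2215 to 2314 CPM in whole muscle.

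Among whole muscle levels per kilobase of exon, core subunits led. Psmb6 averaged 142 ± 13.5 CPM per kilobase (SD, n = 3), Psma6 136 ± 4.01, Psmb2 119 ± 3.85, Psma3 97.7 ± 7.42 and Psmb5 93.6 ± 1.92. The first 2 did not differ beyond their spread, and neither did Psma3 and Psmb5. Psmd6, a lid subunit, came next with 86.5 ± 7.51 CPM per kilobase. Psmb6 and Psma6 also held the first 2 places in each of the 3 fiber groups. Psmb10 was 37th, Psmb8 42nd and Psmb9 46th of the 50 in whole muscle. The profile over the 50 genes correlated between libraries, on log2(CPM + 0.5), with Pearson's r of 0.992 to 0.996 among whole muscle libraries, 0.959 to 0.987 among single fibers, 0.824 to 0.956 among pools of 5 and 0.825 to 0.964 among pools of 20. These values are across genes, which are not independent replicates.

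The summed level of all 50 genes was 4682 to 11490 CPM in single fibers, 1689 to 9456 CPM in pools of 5, 461 to 2064 CPM in pools of 20 and 4410 to 4842 CPM in whole muscle. On log2(CPM + 0.5), the median gene lay 0.02 below, 1.22 above and 0.14 below its whole muscle mean in single fibers 1 to 3. In 5-fiber pools 1 to 3 it lay 0.62 below, 1.28 below and 0.81 above that mean, and in 20-fiber pools 1 to 3 it lay 1.06, 3.18 and 1.12 below. Whole muscle libraries lay within 0.12 of it. On this scale every pool of 20 lay below whole muscle, and the other fiber groups had libraries on either side of it.

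The position of single fibers and pools of 5 relative to whole muscle depended on the scaling. TMM factors were 0.554 to 0.885 in single fibers, 0.522 to 0.741 in pools of 5 and 1.03 to 2.95 in pools of 20, against 1.42 to 1.60 in whole muscle. Per 1000000 unscaled reads, the 50 genes summed to 3953, 6372 and 4142 in single fibers, 1400, 1248 and 5810 in pools of 5 and 2111, 1292 and 2845 in pools of 20, against 7041, 6848 and 6550 in whole muscle. On that scale all 9 fiber libraries lay below all whole muscle libraries, single fiber 2 and 5-fiber pool 3 included. A fit on library totals with no scaling factors, chosen after seeing the data, gave 0 members higher than whole muscle in each fiber group and 15 lower in single fibers, 12 in pools of 5 and 37 in pools of 20. It also moved the median log2 fold change over all genes to -1.20 in single fibers, against -0.12 with TMM, and to -1.20 against -0.03 in pools of 5. In pools of 20 that median was 0.25, against 0.38 with TMM. All-gene calls became 444 higher and 6477 lower in single fibers, where TMM gave 1945 and 2771, and 290 and 5391 in pools of 5, where TMM gave 684 and 623. In pools of 20 they became 3946 and 3119, where TMM gave 5147 and 2299. The member median in single fibers was -0.62 unscaled and 0.49 with TMM, above the median over all genes in each case. The lower level of proteasome genes in pools of 20 and of Psmb8, Psmb9 and Psmd5 in single fibers was found on both scales, and all other values below are with TMM.

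**Figure D2:**
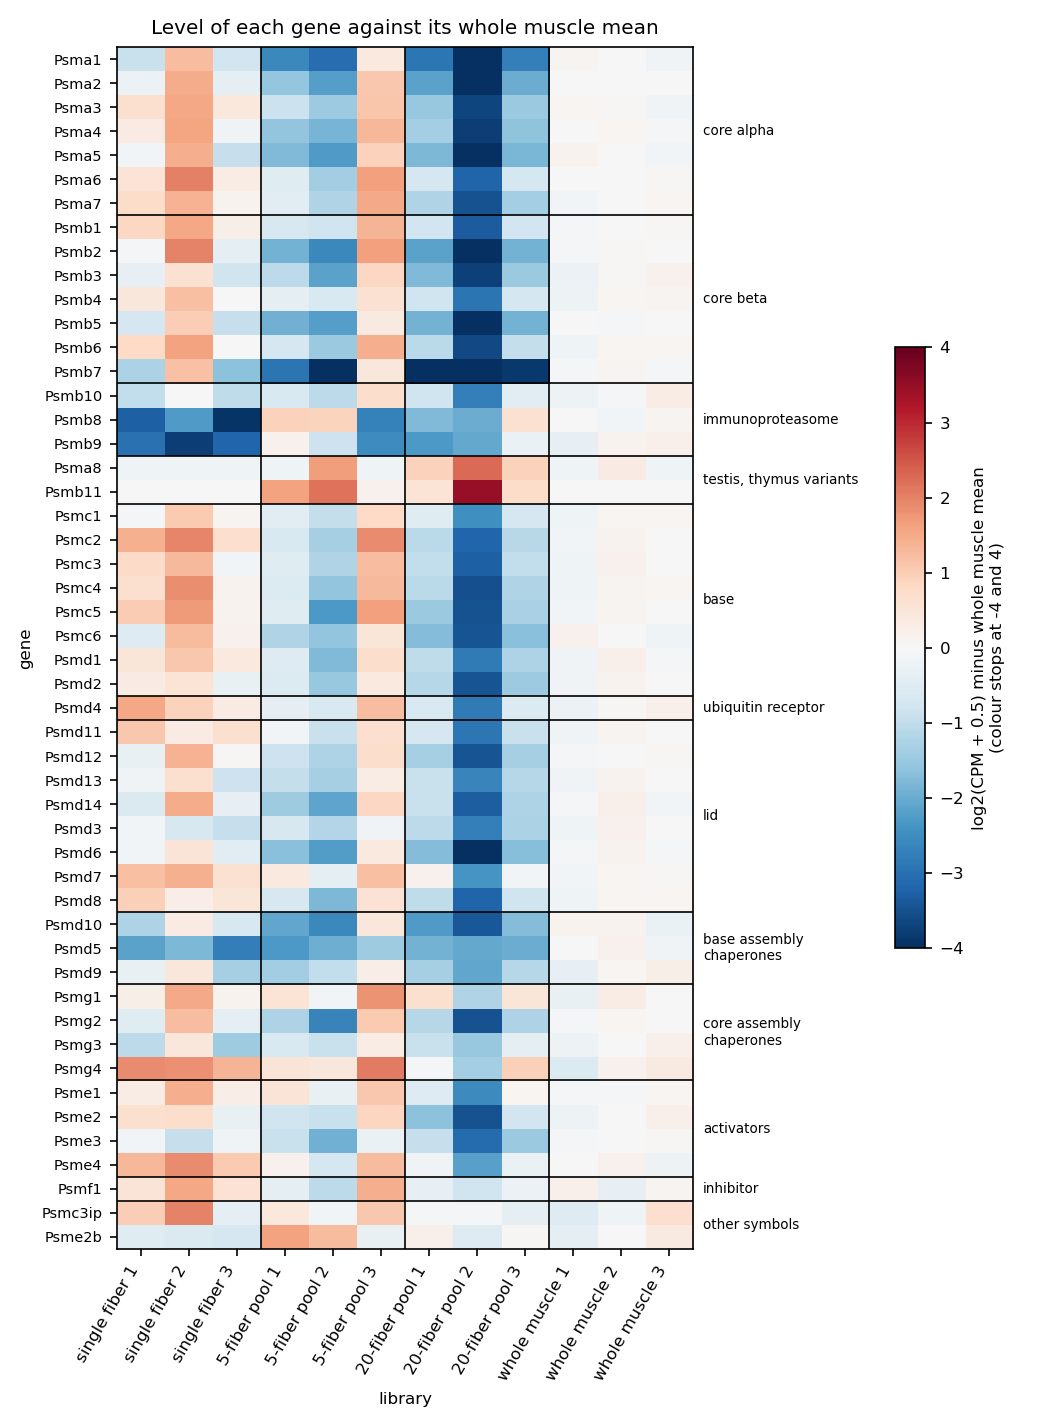
Each row is a gene, ordered by role, and each column a library. Colour gives log2(CPM + 0.5) minus the gene's whole muscle mean, with colours ending at -4 and 4. In TMM-scaled values, most rows are red in single fiber 2 and 5-fiber pool 3 and blue in the pools of 20, while Psmb8 and Psmb9 are blue in the single fibers and Psmd5 is blue in all 9 fiber libraries.

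In edgeR's quasi-likelihood test (Benjamini-Hochberg adjusted p under 0.05 over all genes tested), 0 of 49 tested proteasome genes were higher and 2 were lower in isolated fibers as a whole against whole muscle, where 7.46% of all genes were higher and 7.78% lower. At an unadjusted p under 0.05 there were 6, where 7394 of 22110 genes were, and DESeq2 called 1 higher, where 4599 genes were. Without 5-fiber pool 3, 10 of 50 were lower, where 2999 of 26253 genes were. Without single fiber 2 there were 5 lower, where 2365 of all genes were. Without whole muscle 2 or 3 there was 1, where 896 or 878 of all genes were. The median log2 fold change of the members was -0.37, against 0.40 over all genes. With upper-quartile scaling those medians were -0.14 and 0.69, and 2119 genes were called higher and 1136 lower, against 1650 and 1720 with TMM.

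Single fibers against whole muscle gave 4 of 47 higher and 3 lower, against 13.9% and 19.8% of all genes. The member median was 0.49, while 5 of 7 fast myofiber markers were higher, with a median of 1.12. Leaving out single fiber 2 gave 9 higher and 10 lower of 48, where 3304 and 4313 of 15246 genes were. Leaving out single fiber 3 gave 13 of 48 higher, where 1686 of 14908 genes were. Leaving out whole muscle 1, 2 or 3 gave 1, 0 or 1 higher, where 496, 394 and 503 of all genes were. Pools of 5 against whole muscle gave 0 of 48 higher and 1 lower, against 4.63% and 4.22% of all genes. At an unadjusted p under 0.05 there were 2, where 3952 of 14764 genes were. DESeq2 called 0 higher, where 1890 of all genes were. This comparison turned on which pools were kept. Without 5-fiber pool 3, 35 of 49 members were lower and 3 higher, where 3788 and 4132 of 16378 genes were. Without 5-fiber pools 1 and 2, which left 1 pool, the member median was 0.65, against -0.29 over all genes. Members lower were 0 without 5-fiber pool 1, where 94 of all genes were. They were also 0 when any 1 whole muscle library was left out, where 5 to 27 of all genes were. With all pools kept, the member median was -0.12 with TMM and 0.03 with relative log expression factors. The medians over all genes were -0.03 and 0.13, and all-gene calls were 684 higher and 623 lower against 906 and 518.

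Pools of 20 against whole muscle gave 0 of 47 higher and 20 lower, against 30.3% and 13.5% of all genes. At an unadjusted p under 0.05 there were 27, where 8710 of 16969 genes were. DESeq2 called 0 higher and 30 lower, where 5494 and 2781 of all genes were. There were 37 lower without 20-fiber pool 2 and 8 without whole muscle 2 or without whole muscle 3. Over all genes these fits called 4317, 1389 and 1442 lower. The member median was -1.26, against 0.38 over all genes, while 0 of 7 fast myofiber markers were called and their median was -0.22. The group therefore had a lower level of many proteasome genes, with its muscle markers near those of whole muscle in 20-fiber pools 1 and 3 and lower in 20-fiber pool 2.

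Among fiber groups, single fibers against pools of 20 gave 30 of 47 higher and 2 lower, against 8.52% and 27.5% of all genes. The member median was 1.72, against -0.74 over all genes. The 7 fast myofiber markers were also all positive and without overlap, with a median of 1.46, though 0 were called. The part of this shift in the member difference was not tested. Leaving out single fiber 2 gave 12 members higher and 1 lower, where 1444 and 7504 of 22428 genes were. Leaving out single fiber 3 gave 19 higher, where 1362 of 24740 genes were. Leaving out 20-fiber pool 2 or 3 gave 1 or 0 lower, where 3012 or 5339 of all genes were. Single fibers against pools of 5 gave 0 of 47 in either direction, against 0.00% and 0.0157% of all genes. At an unadjusted p under 0.05 there were 2, where 1132 of 12700 genes were. DESeq2 called 2 lower, where 395 of all genes were. Leaving out 5-fiber pool 3 gave 1 higher and 2 lower there, where 231 and 602 of 15081 genes were. Pools of 5 against pools of 20 also gave 0 of 47 in either direction, against 0.00% and 0.00% of all genes. At an unadjusted p under 0.05 there were 7, where 1502 of 17113 genes were. DESeq2 called 0 members, where it called 77 higher and 102 lower over all genes. Without 5-fiber pool 2 there was 1 higher, where 38 of 24668 genes were. The comparisons with whole muscle share its 3 libraries, and those of single fibers share the single fiber libraries.

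**Figure D3:**
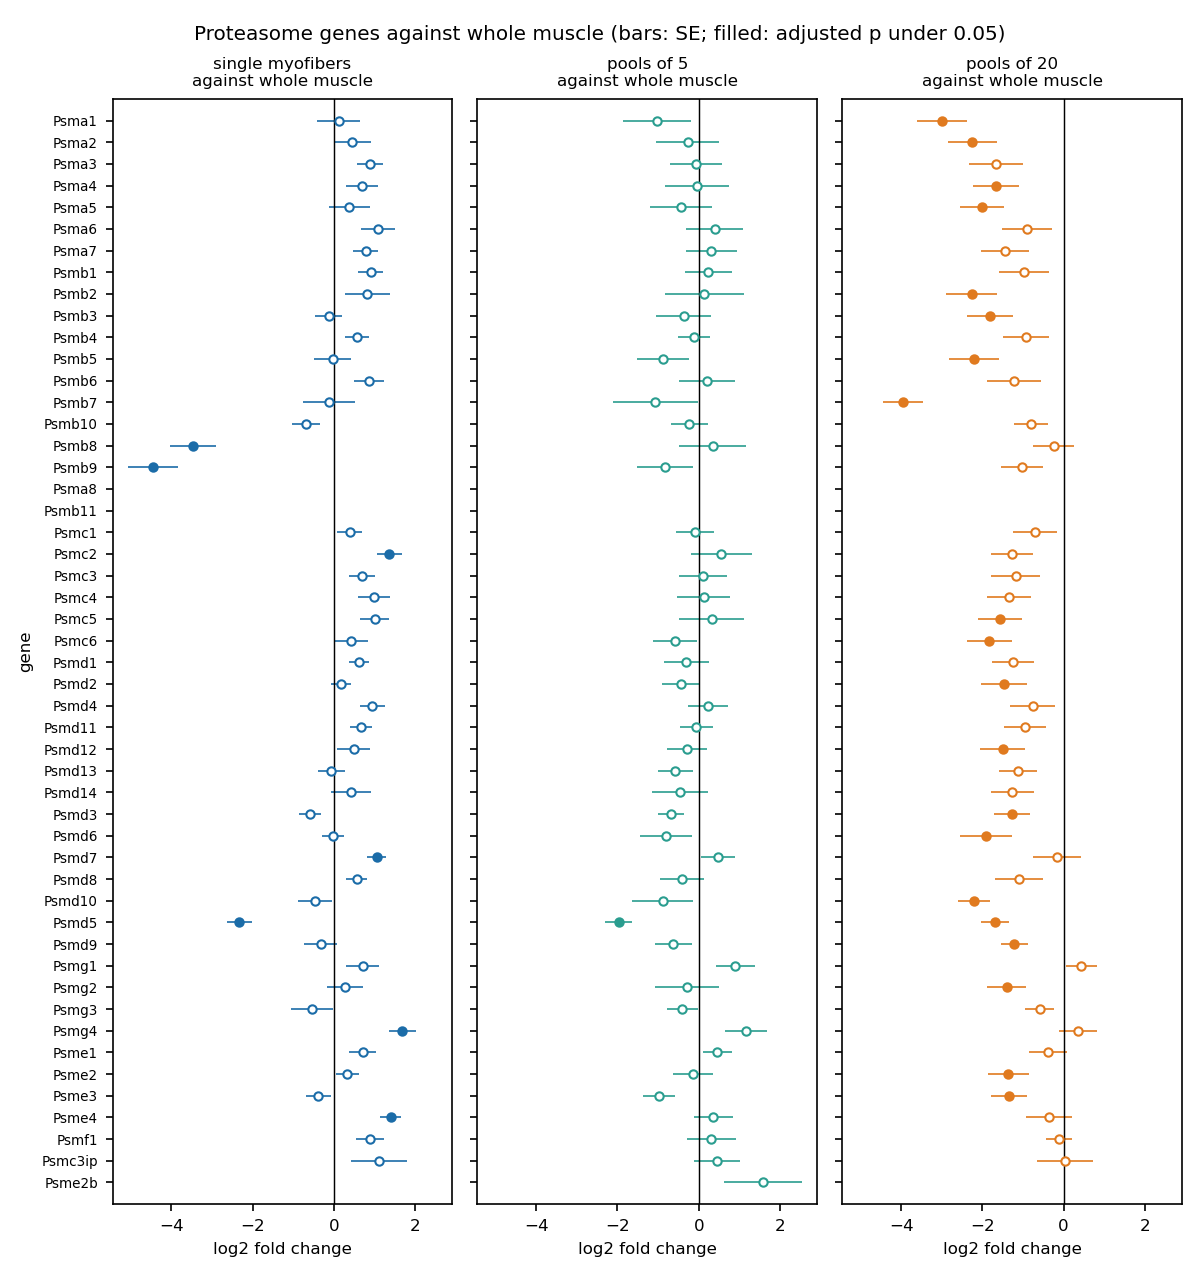
Log2 fold change of each gene (points) with its standard error (bars) in single fibers, pools of 5 and pools of 20, each against whole muscle, by edgeR. Filled points passed an adjusted p of 0.05: 7 in single fibers, 1 in pools of 5 and 20 in pools of 20. Genes that did not pass the filter on low counts have no point.

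The constitutive core had 0 of 14 members called in single fibers against whole muscle, where 13.9% of all genes were higher and 19.8% lower, and 8 of 14 lower in pools of 20, where 13.5% of all genes were. Psmb7, the trypsin-like catalytic subunit, had the largest drop. It had 5.35, 3.34 and 6.15 CPM in 20-fiber pools 1 to 3, against 91.9, 105 and 94.2 CPM in whole muscle. The groups did not overlap, and the log2 fold change was -3.96, with an SE of 0.49 (adjusted p = 5.7e-05). Beside other fold changes, ± is the SE. In 20-fiber pool 2 its reads per kilobase lay within the background density, the 99th percentile of the receptor genes. It had 39.6, 218 and 31.0 CPM in single fibers and 12.2, 4.01 and 134 CPM in pools of 5. Single fiber 2 and 5-fiber pool 3 were thus above whole muscle and the other 4 of these libraries below it. The level in single fibers against pools of 20 differed by a log2 fold change of 3.81 ± 0.70 (adjusted p = 0.00608).

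Psma1, an alpha ring subunit, followed with 26.7, 6.52 and 29.9 CPM in pools of 20, against 219, 207 and 184 CPM in whole muscle. All pools lay below all whole muscle libraries, at a log2 fold change of -3.00 ± 0.62 (adjusted p = 0.00108). Psmb2, a non-catalytic beta subunit, had 31.8, 4.55 and 38.5 CPM in pools of 20 and 138, 147 and 145 CPM in whole muscle, a log2 fold change of -2.27 ± 0.64 (adjusted p = 0.00887). Psma5, another alpha subunit, had -2.01 ± 0.54 (adjusted p = 0.00701), and 50% of its 50-base windows occur in other genes, mostly a pseudogene. Psma2, Psma4, Psmb3 and Psmb5 were the other core members that fell. In single fibers against pools of 20, 7 of 7 alpha and 6 of 7 beta subunits were higher, against 8.52% of all genes. Psma3, Psma6 and Psmb6, among the members with the highest levels, did not pass the test in pools of 20 against whole muscle but did so in that comparison. Their log2 fold changes there were 2.56 ± 0.71 for Psma3 (adjusted p = 0.013), 2.02 ± 0.69 for Psma6 (adjusted p = 0.0341) and 2.13 ± 0.70 for Psmb6 (adjusted p = 0.03). None of these 3 passed without single fiber 2 or without single fiber 3, nor did Psma6 and Psmb6 without single fiber 1 or Psma6 without 20-fiber pool 2. On unscaled totals Psma3 passed and Psma6 and Psmb6 did not (adjusted p = 0.0741 and 0.0549).

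Psmb5, the chymotrypsin-like catalytic subunit, had 53.1, 166 and 44.4 CPM in single fibers, 22.1, 17.8 and 107 CPM in pools of 5, 22.1, 2.20 and 22.1 CPM in pools of 20 and 85.0, 82.2 and 85.3 CPM in whole muscle. It fell in pools of 20 by 2.19 ± 0.61 on the log2 scale (adjusted p = 0.00881) and did not pass elsewhere against whole muscle. Its level is uncertain, since 54.1% of its 50-base windows also occur in other annotated genes, most of them in a processed pseudogene. Psmb6, the caspase-like catalytic subunit, had 459, 817 and 266 CPM in single fibers, 166, 94.5 and 732 CPM in pools of 5, 126, 21.2 and 137 CPM in pools of 20 and 237, 280 and 281 CPM in whole muscle. Its log2 fold change of -1.23 ± 0.66 in pools of 20 did not pass (adjusted p = 0.145), although the groups did not overlap.

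Of the regulatory particle, 2 of 17 members were higher in single fibers, near the 13.9% of all genes, and 6 of 17 were lower in pools of 20, against 13.5% of all genes, each relative to whole muscle. Psmc2, a base ATPase, had 237, 339 and 139 CPM in single fibers, against 80.5, 95.8 and 86.6 CPM in whole muscle. All single fibers were above all whole muscle libraries, at a log2 fold change of 1.37 ± 0.31 (adjusted p = 0.0133). Psmd7, a lid subunit, had 268, 310 and 178 CPM in single fibers and 107, 123 and 119 CPM in whole muscle, a log2 fold change of 1.05 ± 0.24 (adjusted p = 0.0147). Neither passed when any 1 whole muscle library was left out, nor on unscaled totals, where the log2 fold changes were 0.25 for Psmc2 and -0.04 for Psmd7. The 6 that fell in pools of 20 were the base members Psmc5, Psmc6 and Psmd2 and the lid members Psmd3, Psmd6 and Psmd12, with Psmd6 at -1.91 ± 0.63 (adjusted p = 0.0231) and Psmc5 at -1.56 ± 0.55 (adjusted p = 0.0293). Psmd6 and Psmc5 did not pass without whole muscle 2 or without whole muscle 3. In single fibers against pools of 20, 7 of 8 base members, Psmd4 and 5 of 8 lid members were higher, against 8.52% of all genes. There Psmc2 had a log2 fold change of 2.65 ± 0.60 (adjusted p = 0.00727), while Psmd4, a ubiquitin receptor, had 1.73 ± 0.59 (adjusted p = 0.0344) and did not pass when any 1 of the single fibers was left out or on unscaled totals.

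Of the 3 immunoproteasome subunits, Psmb8 and Psmb9 were called in single fibers and Psmb10 was not. Psmb8, which takes the place of Psmb5, had 1.00, 2.47 and 0.446 CPM in single fibers, 26.5, 26.2 and 1.71 CPM in pools of 5, 3.76, 3.11 and 21.6 CPM in pools of 20 and 13.9, 12.7 and 14.9 CPM in whole muscle. Both 5-fiber pools with many receptor reads and 20-fiber pool 3 were above whole muscle, and all single fibers and 5-fiber pool 3 were far below it. In single fibers against whole muscle Psmb8 fell by 3.47 ± 0.56 on the log2 scale (adjusted p = 0.00453), and the call held when any 1 library was left out (highest adjusted p = 0.0353). Of its 50-base windows, 11.9% also occur in other genes, mostly an overlapping antisense gene. Psmb9, which takes the place of Psmb6, had 0.584, 0.13 and 0.446 CPM in single fibers, 9.10, 4.33 and 0.988 CPM in pools of 5, 1.25, 1.59 and 6.62 CPM in pools of 20 and 6.27, 8.96 and 9.29 CPM in whole muscle. Those single fiber levels rest on 7, 2 and 5 reads, and in single fibers 1 and 2 they lay within the background density. Psmb9 fell by 4.45 ± 0.62 on the log2 scale in single fibers (adjusted p = 0.00272) and by 2.18 ± 0.58 in isolated fibers as a whole (adjusted p = 0.0204), the second of which did not pass without whole muscle 2 or without whole muscle 3.

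Psmb10, which takes the place of Psmb7, had other values. It had 9.93, 20.1 and 9.62 CPM in single fibers, 12.9, 9.47 and 32.6 CPM in pools of 5, 11.3, 2.58 and 14.9 CPM in pools of 20 and 17.1, 18.9 and 24.7 CPM in whole muscle. Its log2 fold change in single fibers was -0.68 ± 0.34 (adjusted p = 0.164), and no comparison called it. Psmb8 and Psmb9 were also the 2 members lower in single fibers against pools of 20, with log2 fold changes of -3.21 ± 0.87 (adjusted p = 0.0123) and -3.38 ± 1.18 (adjusted p = 0.0376). The first did not pass without 20-fiber pool 3, and the second did not pass without single fiber 2 or when any 1 of the pools of 20 was left out. Psmb9 lay within the background density in 20-fiber pools 1 and 2 as well, and Psmb8 in 20-fiber pool 2.

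**Figure D4:**
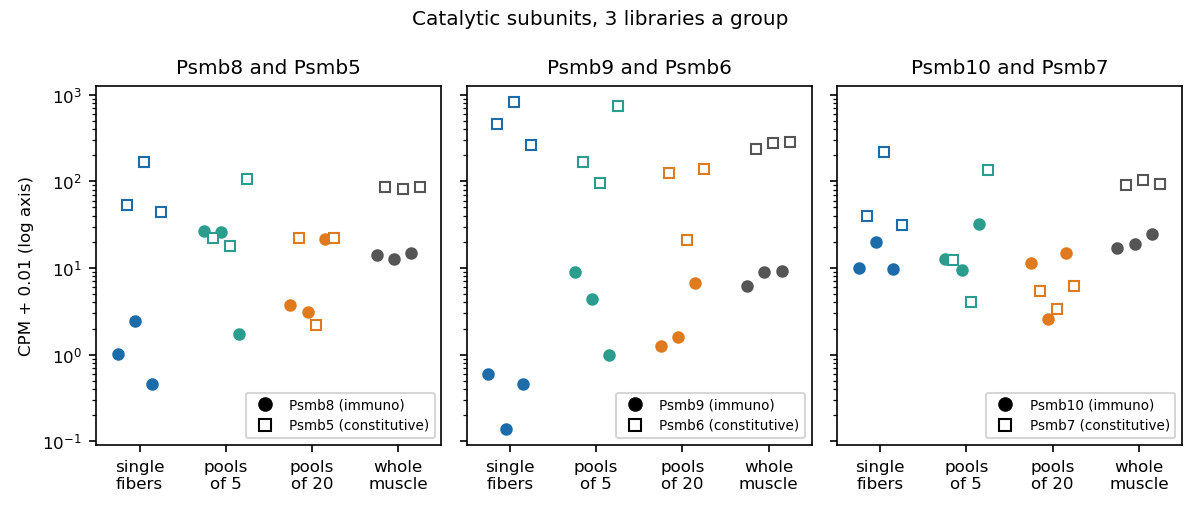
CPM + 0.01 on a log axis for each immunoproteasome subunit (filled circles) and its constitutive partner (open squares), with 1 point per library. Psmb9 lies lowest in the single fibers, at 0.13 to 0.584 CPM. Psmb8 has 0.446 to 2.47 CPM there, a range that also holds 5-fiber pool 3 at 1.71 CPM. Psmb7 has 3.34 to 6.15 CPM in the pools of 20, a range that also holds 5-fiber pool 2 at 4.01 CPM.

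A share within a library needs no scaling between libraries. These are shares of reads and are not corrected for gene length, so they do not give which transcript was more abundant. Psmb8 took 1.85%, 1.46% and 0.994% of the Psmb8 and Psmb5 reads in single fibers, 54.6%, 59.5% and 1.57% in pools of 5, 14.5%, 58.6% and 49.4% in pools of 20 and 14.1%, 13.4% and 14.9% in whole muscle. Exact (Clopper-Pearson) 95% intervals, which cover counting error only, ran from 0.324% to 3.21% over the single fibers and from 12.2% to 16.2% over whole muscle. The isolated libraries thus lay on both sides of whole muscle, 4 below all of it and 4 above. Psmb8 has 3381 exon bases and Psmb5 has 899. Per kilobase of exon the Psmb8 share was 24.2%, 28.1% and 0.423% in pools of 5 and 4.33%, 27.3% and 20.6% in pools of 20. In whole muscle it was 4.18%, 3.96% and 4.45%. One of the libraries above whole muscle, 20-fiber pool 2 at 58.6% of reads, had its Psmb8 reads within the background density. The mean share of reads over isolated libraries, 26.9% ± 27.6 (SD, n = 9), did not differ from the 14.1% ± 0.737 of whole muscle (n = 3) beyond that spread in an exact two-sided permutation test (p = 0.482, adjusted over 4 shares 0.642, smallest possible 0.00455). Leaving out the 5 libraries with many receptor reads turned the difference from 12.8 to -12.7 percentage points.

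Psmb9 took 0.127%, 0.0159% and 0.167% of the Psmb9 and Psmb6 reads in single fibers, 5.20%, 4.38% and 0.135% in pools of 5, 0.986%, 6.98% and 4.60% in pools of 20 and 2.58%, 3.10% and 3.20% in whole muscle. Again the same 4 fiber libraries as for Psmb8 were highest, and the exact permutation test gave p = 0.755. The Psmb9 reads behind the 6.98% of 20-fiber pool 2 and the 0.986% of 20-fiber pool 1 lay within the background density, as did those of single fibers 1 and 2. Psmb10 took 20.0%, 8.47% and 23.7% of the Psmb10 and Psmb7 reads in single fibers, 51.3%, 70.2% and 19.6% in pools of 5, 67.8%, 43.6% and 70.8% in pools of 20 and 15.7%, 15.3% and 20.7% in whole muscle. Here 6 of 9 isolated libraries were above all of whole muscle (exact permutation p = 0.123, adjusted 0.245). In these 6 libraries Psmb10 itself was below whole muscle, at 2.58 to 14.9 CPM against 17.1 CPM or more. Psmb7 was at 3.34 to 31.0 CPM, against 91.9 CPM or more, and within the background density in 20-fiber pool 2. Per kilobase of exon the Psmb10 share was 27.2%, 26.6% and 34.4% in whole muscle. With 3 libraries against 3, no permutation test can go below 0.1, so the groups are given as values.

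**Figure D5:**
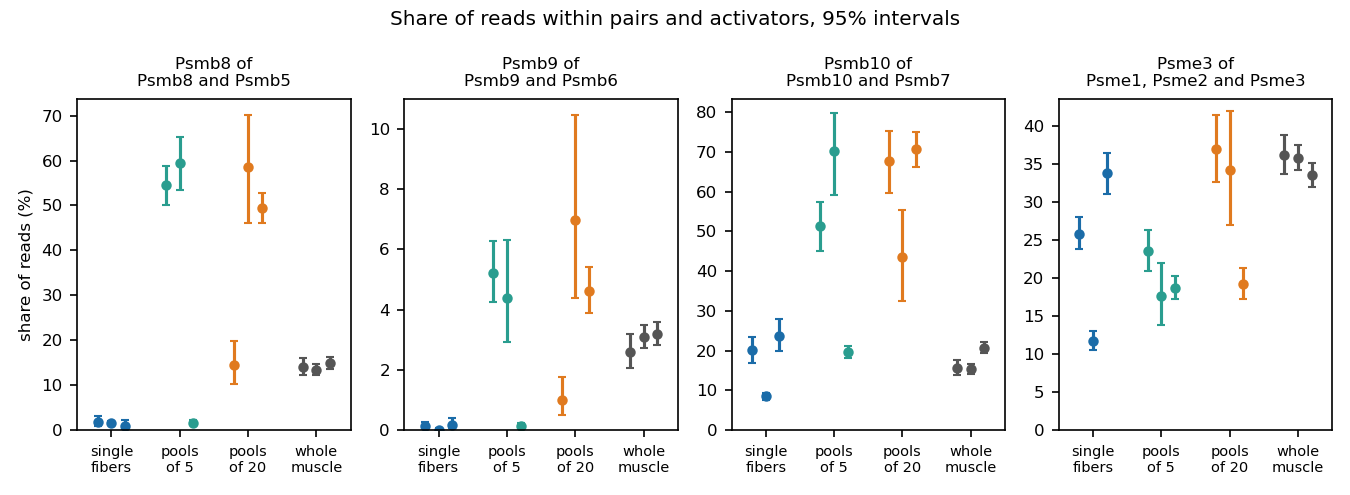
Share of reads in percent, not corrected for gene length, per library with exact 95% intervals, of each immunoproteasome subunit within its pair and of Psme3 within Psme1, Psme2 and Psme3. The Psmb8 share is 0.994% to 1.85% in single fibers and 13.4% to 14.9% in whole muscle, and it splits the pools of 5 and of 20 into high and low libraries.

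The pools with the highest Psmb8 levels were also the highest in endothelial, fibroblast and erythroid markers. Endothelial markers summed to 389 and 323 CPM in 5-fiber pools 1 and 2 and 259 CPM in 20-fiber pool 3, against 28.9 CPM in 5-fiber pool 3 and 44.1 and 52.7 CPM in 20-fiber pools 1 and 2. All 8 endothelial markers had reads in each pool, while 1 to 4 of 8 were at 0 in the single fibers and 8 of 8 were lower in single fibers than in whole muscle. Macrophage markers summed to 21.0 and 45.3 CPM in 5-fiber pools 1 and 2 and 70.5 CPM in 20-fiber pool 3, under the 494 CPM or more of whole muscle, and 3 to 7 of 10 were at 0 in single fibers. Fibroblast markers summed to 350 and 469 CPM in 5-fiber pools 1 and 2 and 441 CPM in 20-fiber pool 3. They summed to 45.6 CPM in 5-fiber pool 3, 92.4 and 60.7 CPM in 20-fiber pools 1 and 2 and 3148 to 3545 CPM in whole muscle. Single fibers had 189, 8.18 and 14.7 CPM. Single fiber 1 thus lay above 5-fiber pool 3 and 20-fiber pools 1 and 2, while its Psmb8 level was 1.00 CPM. Erythroid markers summed to 387 and 455 CPM in 5-fiber pools 1 and 2 and 352 CPM in 20-fiber pool 3, against 108 CPM in 5-fiber pool 3 and 24.0 and 18.0 CPM in 20-fiber pools 1 and 2, while whole muscle had 608 to 904 CPM. These 3 lists thus split the pools alike, while the macrophage sum of 20-fiber pool 2, 31.9 CPM, lay above that of 5-fiber pool 1. The interferon and class I presentation genes treated below split them alike too, at 1612, 1268 and 1087 CPM against 723, 515 and 131 CPM. Lymphocyte markers did not. They summed to 1.65, 7.70 and 6.05 CPM in 5-fiber pools 1 and 2 and 20-fiber pool 3. In 5-fiber pool 3 and 20-fiber pools 1 and 2 they summed to 5.33, 2.05 and 13.0 CPM. The part of these cell types in the Psmb8 and Psmb9 levels was not tested. In bulk libraries, fewer cells of a type and less RNA per cell cannot be told apart.

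Psmd5, a chaperone of base assembly, was the member called in all 4 comparisons with whole muscle. It had 7.01, 9.15 and 4.46 CPM in single fibers, 6.25, 8.18 and 11.9 CPM in pools of 5, 8.54, 7.51 and 7.99 CPM in pools of 20 and 32.7, 36.7 and 29.6 CPM in whole muscle. Every fiber library lay below every whole muscle library, including single fiber 2 and 5-fiber pool 3, in which most proteasome genes were high after TMM scaling. It averaged 7.89 ± 2.05 CPM in isolated fibers (SD, n = 9) and 33.0 ± 3.60 CPM in whole muscle (n = 3), which gave a log2 fold change of -2.07 with an SE of 0.33 (adjusted p = 0.00046), and the call held when any 1 of the 12 libraries was left out (highest adjusted p = 0.00643). By group it fell by 2.33 ± 0.30 in single fibers (adjusted p = 0.0021), 1.97 ± 0.33 in pools of 5 (adjusted p = 0.0178) and 1.68 ± 0.34 in pools of 20 (adjusted p = 0.000999). In pools of 5 it did not pass without 5-fiber pool 1 or when any 1 whole muscle library was left out, and in 20-fiber pool 2 it lay within the background density.

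The other base chaperones fell in pools of 20, Psmd10, known as gankyrin, by 2.20 ± 0.40 (adjusted p = 0.000416) and Psmd9 by 1.22 ± 0.33 on the log2 scale (adjusted p = 0.00762). The Psmd9 call did not pass without whole muscle 2 or without whole muscle 3, and both genes lay within the background density in 20-fiber pool 2. Psmd10 had 2.96, 1.06 and 4.40 CPM in those pools and 17.5, 17.5 and 13.3 CPM in whole muscle. Psmd9 shares 25.5% of its exon bases with an antisense noncoding gene, so reads of these genes cannot be told apart without strand. Of the core chaperones, which assemble the alpha ring, Psmg4 was higher in single fibers, with 25.1, 24.3 and 17.4 CPM against 4.26, 7.32 and 8.41 CPM in whole muscle, a log2 fold change of 1.68 ± 0.33 (adjusted p = 0.00835). It did not pass without whole muscle 2 or on unscaled totals (0.61). Psmg2 was lower in pools of 20 at -1.40 ± 0.49 (adjusted p = 0.0276), a call that did not pass without whole muscle 2 or 3, and Psmg1 and Psmg3 were not called in any of the comparisons.

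Among the activators, Psme4, which encodes PA200, a nuclear activator that stimulates degradation without ubiquitin, had 314, 459 and 259 CPM in single fibers, against 127, 141 and 108 CPM in whole muscle. All single fibers exceeded all whole muscle libraries, at a log2 fold change of 1.40 ± 0.26 (adjusted p = 0.00773), which did not pass when any 1 of the whole muscle libraries was left out or on unscaled totals, where it was 0.30. It took 3.996% to 5.53% of all proteasome gene reads in single fibers, 3.14% to 5.21% in pools of 5 and 4.99% to 5.88% in pools of 20, against 2.34% to 2.91% in whole muscle. Its share was thus higher in each fiber library than in any whole muscle library, also where its CPM was not. Psmd7 (2.69% to 6.35% in fibers against 2.43% to 2.57% in whole muscle), Psmg4 and Psma6 were also higher in share in each fiber library. A share of proteasome gene reads also rises when other members fall.

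Psme1 and Psme2, which form the interferon-inducible PA28 ring, had 39.6, 87.3 and 38.0 CPM and 64.5, 66.4 and 33.1 CPM in single fibers, against 31.1, 30.9 and 33.6 CPM and 35.3, 40.8 and 47.8 CPM in whole muscle. Neither passed in single fibers (adjusted p = 0.135 for Psme1 and 0.401 for Psme2), and Psme2 fell by 1.36 ± 0.50 in pools of 20 (adjusted p = 0.0373). Psme3, which encodes the nuclear PA28 gamma, fell there by 1.35 ± 0.45 (adjusted p = 0.0222), and neither of these passed without whole muscle 2 or without whole muscle 3. Psme3 took 24.6% ± 8.72 of the reads of the 3 PA28 genes in isolated fibers (SD, n = 9) and 35.2% ± 1.44 in whole muscle (n = 3, exact permutation p = 0.0909, adjusted 0.245). Part of the Psme2 reads is uncertain, since 28.3% of its 50-base windows also occur in Psme2b. The inhibitor Psmf1 had 23.6, 48.5 and 24.9 CPM in single fibers and 18.9, 13.1 and 17.9 CPM in whole muscle, a log2 fold change of 0.89 ± 0.34 (adjusted p = 0.079), and was called in none of the comparisons.

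The members that failed the filter on low counts somewhere were Psma8, Psmb11 and Psme2b. Psma8, an alpha variant known from male germ cells, and Psmb11, the beta variant of thymic cortical epithelium, had 0 reads in all single fibers, where 3 reads would be 0.108 to 0.237 CPM on the unscaled total. They reached 29 and 67 reads in 20-fiber pool 2, within the background density. Psma8 had 6 reads in whole muscle 2 and 0 in the other whole muscle libraries, and Psmb11 had 0 in all 3. Psme2b had at most 2.39 CPM, in 5-fiber pool 1, and shares 69.3% of its windows, mostly with Psme2. Psmc3ip passed the filter everywhere and was not called.

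Other genes of the pathway were read from lists. Of 15 assembly and associated factors, 0 were higher and 1 lower in isolated fibers, namely Ngly1, a deglycosylase that activates the proteasome regulator Nfe2l1. It averaged 29.2 ± 18.8 CPM in isolated fibers (n = 9) and 71.9 ± 7.84 CPM in whole muscle (n = 3), a log2 fold change of -1.40 ± 0.46 (adjusted p = 0.0455) that did not pass in 10 of 12 fits without 1 library. Against whole muscle, 5 of these 15 were higher and 0 lower in single fibers, where 13.9% of all genes were higher. In pools of 5 there was 1 higher and 0 lower (4.63% and 4.22% of all genes), and in pools of 20 there were 0 higher and 2 lower (30.3% and 13.5% of all genes).

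Of 10 interferon and class I presentation genes, Irf1, a transcription factor induced by interferon, was higher in isolated fibers, with 60.7 ± 49.8 CPM (n = 9) against 13.2 ± 0.767 CPM in whole muscle (n = 3). Its log2 fold change of 2.04 ± 0.64 (adjusted p = 0.039) did not pass in 6 of 12 fits without 1 library or on unscaled totals, and the groups overlapped. Pools of 5 had 2 of the 10 higher and 0 lower, and pools of 20 had 2 higher and 2 lower, against the same shares of all genes as above. In single fibers 0 of the 10 were higher and 1 was lower, where 13.9% and 19.8% of all genes were. The lower one was Tap2, a peptide transporter subunit encoded near Psmb8 and Psmb9, at a log2 fold change of -2.78 ± 0.69 (adjusted p = 0.0188), named after its values were seen.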

How the data were processed

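RNA was measured by SMART-Seq HT in 12 EDL libraries, 3 in each of 4 groups taken from the labels. The deposited values are raw read counts per gene; HISAT2, SAMtools and featureCounts on GRCm38 (mm10) are named in the submitters' processing notes, and the strand and multi-mapping settings are not given in the sources used here. Symbols, exon lengths and positions came from GENCODE M21 (55480 of 55573 identifiers matched), and promoter sequences from RefSeq GRCm38.p6. The members and the gene lists were chosen with earlier results of these data known.

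edgeR 4.0.16 in R 4.3.3 (TMM factors, filterByExpr, glmQLFit, glmQLFTest, Benjamini-Hochberg adjusted p under 0.05 over all genes tested) fitted 7 comparisons: isolated fibers against whole muscle on all 12 libraries, and each pair of groups on its own 6 libraries. A standard error is the absolute log2 fold change divided by the square root of F. CPM are counts over the TMM-scaled total of all 12 libraries. Each fit was tested on simulated data in which 200 genes were changed. Read shares were compared by exact permutation tests (SciPy 1.17.1). The background density is the 99th percentile of reads per kilobase over 1504 receptor genes. Libraries of a group were checked for duplicates, and none agreed within sampling noise. Alternatives were DESeq2 1.42.0, relative log expression and upper-quartile factors, no filter on low counts, a replicate block, leaving out each library, and leaving out the libraries that stood apart. A fit on unscaled library totals was added after seeing the data.

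Genes named were the catalytic beta subunits, the activators and the inhibitor, the 3 members of each structural list with the highest reads per kilobase, in each comparison the 3 called members that changed most in either direction, members that failed the filter, and the called pathway genes with the largest change in isolated fibers. Others named were chosen after their values were seen. A further list of pathway genes is not reported here.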

Additional observations from a re-analysis of the deposited data

Results flagged for a closer look

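For 20 of the genes named, the level in single fibers differed from that in pools of 20 by edgeR's quasi-likelihood test, so the difference of these 2 groups from whole muscle was not the same. Of the 32 members called in this comparison, 25 had log2 fold changes of opposite sign in the 2 groups when each was set against whole muscle with TMM. Since these 32 were chosen by the difference between the 2 groups, opposite signs partly follow from the choice. No share over all genes is given. With TMM, 33 of 47 members were positive in single fibers and 3 of 47 in pools of 20 against whole muscle. The medians over all genes were -0.12 and 0.38 there. On unscaled totals 3 of 47 were positive in each, with medians over all genes of -1.20 and 0.25. The log2 fold changes of single fibers over pools of 20 were, for the core, 3.81 for Psmb7, 3.14 for Psma1, 3.12 for Psmb2, 2.56 for Psma3, 2.42 for Psma5, 2.21 for Psmb5, 2.13 for Psmb6 and 2.02 for Psma6. For the regulatory particle they were 2.65 for Psmc2, 2.57 for Psmc5, 1.89 for Psmd6, 1.88 for Psmc3, 1.73 for Psmd4 and 1.66 for Psmd8. For chaperones and activators they were 1.77 for Psmd10, 1.76 for Psme4, 1.72 for Psme2 and 1.70 for Psmg2. Psmb9 at -3.38 and Psmb8 at -3.21 had the opposite sign. In the same comparison the 7 fast myofiber markers had log2 fold changes of 1.055 to 2.156, with 0 called. All pools of 20 had reads on 78.7% or more of the receptor genes, against 26.7% or less in the single fibers, and the part of this in the differences was not tested. Psma1, Psmb2, Psmb7, Psmc2 and Psmc5 passed in each of the 6 fits that left out 1 library. With the replicate number as a block, 0 members passed in either direction, with no filter on low counts 12 were higher, and on unscaled totals 13 were higher and 2 lower, against 30 and 2 in the fit reported. Over all genes the block gave 0 higher and 7 lower of 16978, so it left few calls of any kind. With no filter 1046 of 50310 genes were higher, and on unscaled totals 438 were higher and 6105 lower of 16978.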

How the results depend on the processing

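Counts of called members depended on the libraries kept and, less often, on the tool. For isolated fibers against whole muscle, higher calls were 1 with DESeq2, where 4599 of 22110 genes were higher. Without the 5 libraries with many receptor reads, which left 1 pool of 5, the member median was 0.48, against -0.25 over all genes. Lower calls were 20 of 50 without single fiber 2 and 5-fiber pool 3, where 3697 of 24965 genes were lower. Those libraries had the highest summed proteasome levels among the fiber libraries, so counts of called members without them partly follow from the choice. For single fibers against whole muscle, higher calls were 9 of 47 with DESeq2, where 2497 of 14028 genes were higher. Without single fiber 2 there were 9 higher and 10 lower of 48, where 3304 and 4313 of 15246 genes were. For pools of 5 against whole muscle, higher calls were 1 with no filter on low counts, where 1343 of 41499 genes were higher. Lower calls were 0 with a replicate block, where 103 of 14764 genes were lower. Without 5-fiber pool 3 there were 3 higher and 35 lower of 49, where 4132 and 3788 of 16378 genes were. Without the receptor-rich libraries, which left 1 pool of 5, the member median was 0.65, against -0.29 over all genes. For pools of 20 against whole muscle, higher calls were 2 with no filter, where 20116 of 50323 genes were higher. For single fibers against pools of 5, there were 23 higher and 3 lower of 48 without single fiber 2 and 5-fiber pool 3. In that fit 1386 and 1927 of 13832 genes were called. Lower calls were 1 with no filter and 2 with DESeq2, where 694 of 41786 and 395 of 12700 genes were lower. For single fibers against pools of 20, higher calls were 12 with no filter, 0 with the replicate block and 12 without single fiber 2. Lower calls were 4, 0 and 1 under the same settings. Over all genes these settings gave 1046, 0 and 1444 higher and 14302, 7 and 7504 lower. On library totals with no scaling factors, chosen after seeing the data, single fibers had 0 higher calls against whole muscle and 13 against pools of 20, and lower calls were 26, 15, 12 and 37 for isolated fibers, single fibers, pools of 5 and pools of 20 against whole muscle. Over all genes those higher calls were 444 and 438, and those lower calls were 4652, 6477, 5391 and 3119. The cause was not tested.

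Leaving out 1 library at a time gave ranges, higher and then lower, of 0 to 0 and 1 to 10 for isolated fibers, 0 to 13 and 3 to 10 for single fibers, 0 to 3 and 0 to 35 for pools of 5 and 0 to 1 and 8 to 37 for pools of 20, each against whole muscle. Over all genes, in the same order, the ranges were 303 to 4272 and 878 to 2999, 394 to 3304 and 1134 to 4313, 2 to 4132 and 5 to 3788, and 4362 to 9960 and 1389 to 4317. Member ranges were 0 to 1 and 0 to 2 for single fibers against pools of 5, 12 to 28 and 0 to 3 for single fibers against pools of 20, and 0 to 1 and 0 to 0 for pools of 5 against pools of 20. In the same order, the all-gene ranges were 0 to 231 and 0 to 602, 919 to 1540 and 3012 to 9174, and 0 to 77 and 0 to 11. The differences in share, isolated minus whole muscle, ranged over these fits from 8.73 to 16.0 points for Psmb8, from -1.01 to -0.136 for Psmb9, from 20.8 to 28.6 for Psmb10 and from -12.1 to -8.97 for Psme3. The Psmb8 difference became -12.7 without the receptor-rich libraries (exact permutation test, adjusted p = 0.0571), and the Psmb9 difference became 0.248 without single fiber 2 and 5-fiber pool 3 (exact permutation test, adjusted p = 0.933).

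Of 45 called results for single genes, 45 kept their call with DESeq2, 45 with relative log expression factors, 43 with upper-quartile factors, 29 on unscaled totals, 32 with no filter and 21 with the replicate block. Psmd7 in single fibers against whole muscle changed sign on unscaled totals, to -0.0439. Replicate numbers did not pair the libraries: deviations of same-numbered libraries correlated from -0.244 to 0.614, and at most 3 of 6 libraries in a pair of groups correlated best with their own number. Depth limits the low members: Psmb9 had 2 to 7 reads and Psma8 and Psmb11 had 0 in each single fiber.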
